A study of Mus musculus with 9 samples.

Results

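Haematopoietic stem cell marker genes were followed across 9 expression arrays of mouse bone marrow progenitors. The 10 genes were Mecom, Prdm16, Hlf, Mycn, Mllt3, Procr, Robo4, Esam, Tek and Pdzk1ip1. Every probe set that the platform annotation assigns to these genes alone was taken. The genes were chosen by name, with earlier results of these data known. They are 10 of 18193 annotated genes and have 21 of the 34945 probe sets with a single gene; a probe set is a group of short probes that reads one transcript, with 1 intensity per array. The cells were sorted as lineage-negative, CD117+, SCA-1+ and CD135+, a phenotype of multipotent progenitors just downstream of the stem cell. Wild-type (WT) mice, mice without E2A (E2A-/-) and mice without Lyl1 (Lyl1-/-) contributed 3 arrays each, which the labels call independent samples. The age, sex and strain of the mice, how the alleles were made and whether animals were pooled are not stated in the labels. The series title places the arrays in work on Tal1 and lymphoid specification, and the comparisons ask how each loss changes expression in these progenitors.

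Haematopoietic stem cells sit at the top of the blood lineages and are recognised by a shared set of transcription regulators and surface proteins. As their progeny gain CD135, the Flt3 receptor, most of these genes are turned down, so a CD135+ progenitor carries them at a reduced level. E2A, encoded by Tcf3, is an E protein: a basic helix-loop-helix factor that pairs with other factors of this class and binds short DNA words called E-boxes. Lyl1 is a close relative of Tal1, and both act as partners of E proteins in stem cells and early progenitors.

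The promoters of 3 of the genes are shown because these genes had the smallest p-values of the 10 when E2A-/- was set against WT. They were chosen after those values were known. E-boxes are marked because E2A and Lyl1 dimers read some words of this class. The sequences are those of RefSeq on assembly GRCm38.p6, written 5′ to 3′ on the strand of the gene up to the last base before the annotated gene, and E-boxes (CANNTG) stand in capitals. The Mecom stretch is chr3:30509760-30510009 on the minus strand, the Robo4 stretch chr9:37401722-37401901 on the plus strand and the Pdzk1ip1 stretch chr4:115088458-115088707 on the plus strand.
Mecom: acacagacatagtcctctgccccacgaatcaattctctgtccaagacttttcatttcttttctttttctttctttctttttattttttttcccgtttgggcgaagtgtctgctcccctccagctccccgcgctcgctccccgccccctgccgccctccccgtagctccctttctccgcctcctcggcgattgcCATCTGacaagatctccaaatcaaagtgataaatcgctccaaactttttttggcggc
Robo4: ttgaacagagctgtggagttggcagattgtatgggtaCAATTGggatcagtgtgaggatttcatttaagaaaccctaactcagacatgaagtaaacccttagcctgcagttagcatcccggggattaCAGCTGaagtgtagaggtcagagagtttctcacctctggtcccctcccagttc
Pdzk1ip1: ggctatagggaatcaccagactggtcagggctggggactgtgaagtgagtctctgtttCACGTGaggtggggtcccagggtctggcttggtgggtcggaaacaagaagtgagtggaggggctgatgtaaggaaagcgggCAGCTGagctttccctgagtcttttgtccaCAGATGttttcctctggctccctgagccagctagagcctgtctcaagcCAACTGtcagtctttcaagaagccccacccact

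Mecom has 1 E-box, a CATCTG that begins 57 bases before the transcript start, followed by the GATA-factor letters GATAA 30 bases before it. Robo4 has a CAATTG at 213 and a CAGCTG at 123 bases before its transcript start; that start lies inside the annotated gene, whose first base is further upstream, so the window was printed only up to the gene. Pdzk1ip1 has 4 E-boxes: CACGTG at 192, CAGCTG at 111, CAGATG at 81 and CAACTG at 33 bases before the start.

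RefSeq promoters were at hand for 9 of the 10 genes, in 11 windows of 250 bases, since Mecom and Mllt3 have a pair of starts each; no window was used for Esam. Any E-box, searched on both strands, lay in 9 of the 11 windows, against 66.2% of 32851 promoters. The CAGCTG form lay in 4 of the 11, those of Procr, Robo4, Pdzk1ip1 and 1 start of Mllt3, against 13% of promoters. CACCTG or its complement CAGGTG lay in 1 window, that of Hlf, against 17.2% of promoters. CAGATG or its complement CATCTG lay in 3 windows, those of Mecom, Pdzk1ip1 and the other start of Mllt3, against 14.4%. GATAA or its complement TTATC lay in 2 windows, both of Mecom, against 22.6%. All of the longer E-box words are included in the count of CANNTG. These matches describe letters only.

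**Figure D1:**
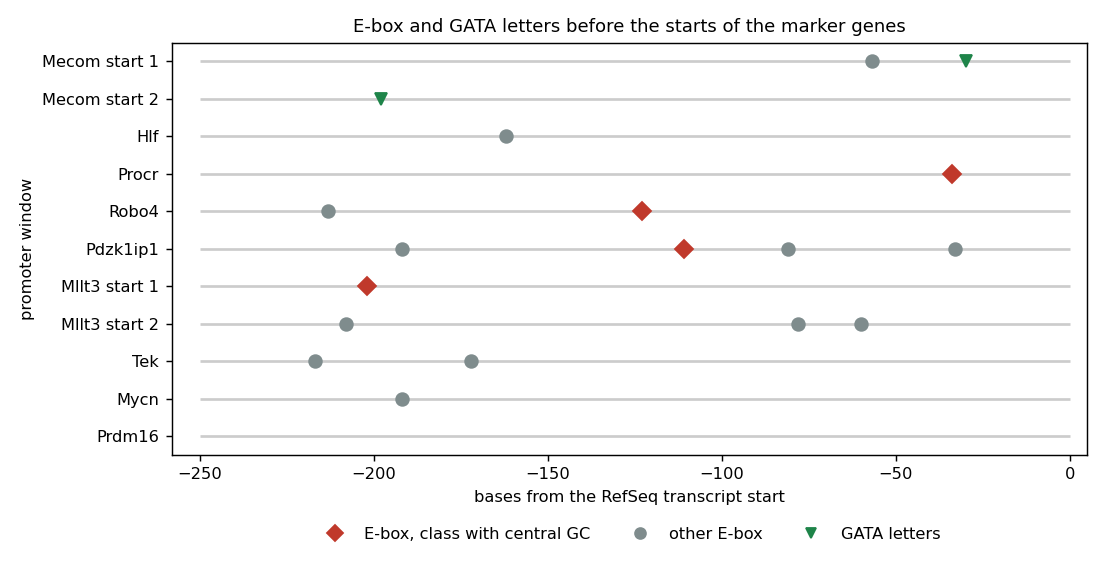
Positions of E-box and GATA letters in the 250 bases before each RefSeq start of the marker genes, on an axis in bases from the start. Red diamonds are CAGCTG, grey circles other E-boxes and green triangles GATAA or TTATC; 9 of the 11 windows hold an E-box, and the second Mecom window and that of Prdm16 hold none.

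The arrays were first checked against their labels. The Lyl1 probe set read between 1352 and 1443 in WT and 79.2 to 92.0 on the Lyl1-/- arrays, close to the array median of 77.9 to 79.2 (log2 difference -4.01, SE 0.164, limma adjusted p = 2.66e-05). Tcf3 gave no such check: its brightest probe set differed by -0.19 between E2A-/- and WT (limma adjusted p = 0.908), and the labels do not say whether its probes lie in the deleted part. Of the sort gate, Kit (CD117) read 314 to 508 and Flt3 (CD135) 672 to 1302. WT 1 and WT 3 were closer to each other than the members of the other 35 pairs of arrays, with 0 probe sets more than 2-fold apart against 6 to 371, and were counted as 1 sample. The WT group therefore had n = 2 and each knockout n = 3. The pair with 6 was Lyl1-/- 1 and Lyl1-/- 2, which were kept as separate samples, and the next lowest pair had 77. The actin 3′ to 5′ ratio, a sign of RNA degradation, was 10.6 on WT 2 and 10.1 on E2A-/- 2, against 2.85 to 4.23 on the other 7 arrays. Xist, transcribed in female cells, read 1811 to 2787 on E2A-/- 2, Lyl1-/- 1 and Lyl1-/- 2 and 49.2 to 57.5 on the rest, so all WT arrays lay on the low side.

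Most tested probe sets of the stem cell marker genes had a lower mean in both knockouts than in WT, but none passed the threshold. The genes were chosen with earlier results of these data known, so their shared direction is a description and not a test. All 9 genes that could be tested lay below WT by their brightest tested probe set, with a median log2 difference of -0.47 in E2A-/- and -0.42 in Lyl1-/- cells. The genes that stood furthest below WT were Pdzk1ip1, Mecom, Mycn and Robo4 in E2A-/- cells. In Lyl1-/- cells they were Pdzk1ip1, Hlf, Mecom and Prdm16. Robo4 and Mycn in the Lyl1-/- arrays were near WT. In bulk samples, fewer cells of a type and less RNA per cell cannot be told apart.

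Of the 21 probe sets, 16 exceeded the median intensity of the array on 3 or more arrays and were tested. These 16 cover 9 genes, and Tek was too dim. A probe set of Prdm16, 1429308_at, passed this filter only through the knockout arrays. Of the 16, 13 had a negative difference between E2A-/- and WT, and 53.3% of all 20402 tested probe sets did. In Lyl1-/- against WT 15 of the 16 were negative, against 51.1% of all. Over the 16 the median difference was -0.26 in E2A-/- and -0.25 in Lyl1-/- cells, beside -0.01 and 0.00 over all tested probe sets. Since both comparisons use the same WT arrays, these counts are not independent of each other.

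The threshold, a Benjamini-Hochberg adjusted p under 0.05 in limma's moderated test over all tested probe sets, was passed by 0 of the 16 in each comparison. Over all probe sets it was passed by 0.221% in E2A-/- and by 0.216% in Lyl1-/- cells against WT, so few calls were made anywhere. At an unadjusted limma p under 0.05, 5 of the 16 were lower and 1 higher in E2A-/- than in WT, beside 5.11% lower and 2.97% higher of all tested probe sets. In Lyl1-/- against WT 4 were lower and 1 higher, beside 4.88% and 3.48%. Counting arrays instead, all 3 E2A-/- arrays lay below all 3 WT arrays for 5 of the 16 and above them for 1, beside 10.3% and 7.22% of all tested probe sets. For Lyl1-/- these counts were 7 and 1, beside 11.7% and 9.51%.

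**Figure D2:**
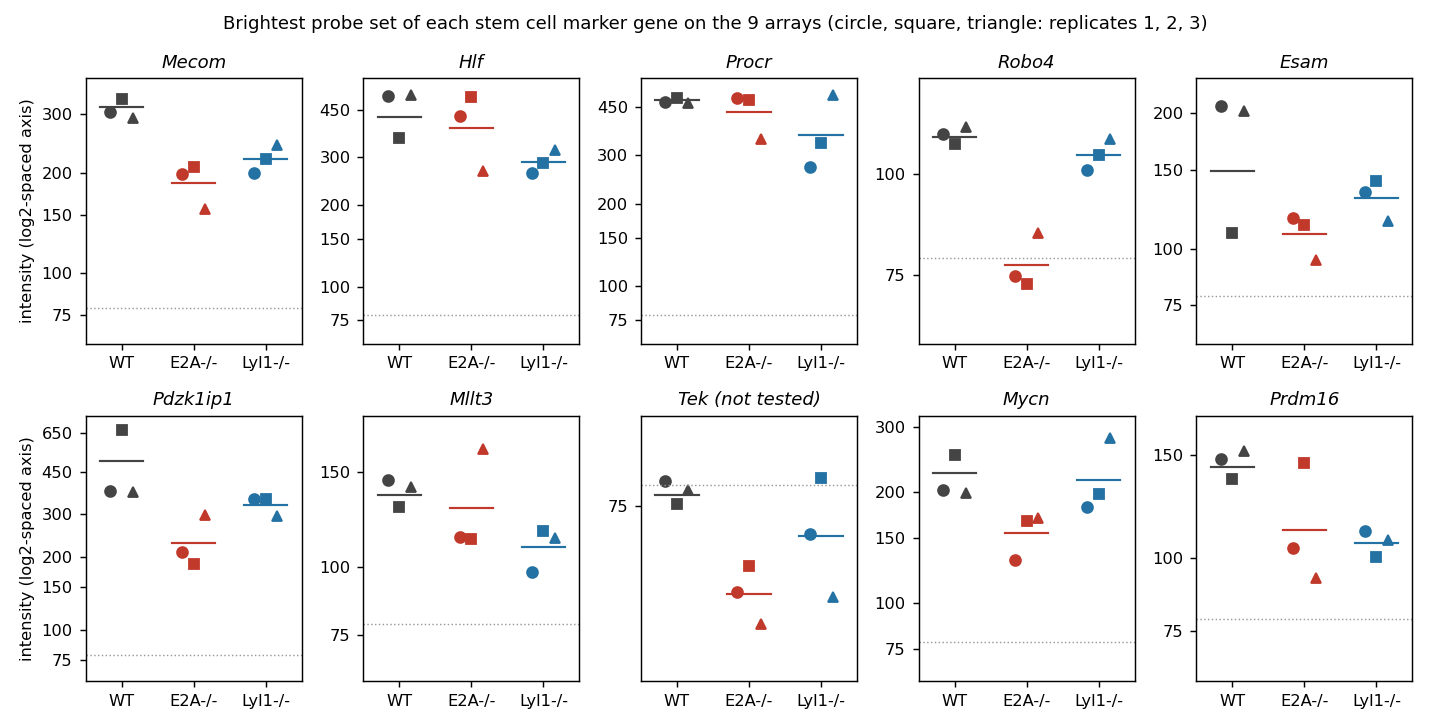
Intensity of the brightest probe set of each gene on the 9 arrays, on a log2-spaced axis; circles, squares and triangles are replicates 1, 2 and 3, the short lines are group means of log2 intensity with WT 1 and WT 3 averaged first, and the dotted line is the mean array median. The 3 E2A-/- points lie below the 3 WT points for Mecom, Robo4, Pdzk1ip1, Mycn and the dim Tek, and the 3 Lyl1-/- points for Mecom, Hlf, Pdzk1ip1, Mllt3 and Prdm16.

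Mecom encodes the zinc finger transcription factor EVI1, needed to maintain stem cells. Its bright probe set read 305, 334 and 292 on WT 1, 2 and 3. The E2A-/- arrays read 199, 209 and 156, and the Lyl1-/- arrays 200, 221 and 243. Every knockout array thus lay below every WT array. The log2 difference from WT was -0.76 in E2A-/- cells (SE 0.149, 95% interval -1.10 to -0.42, limma adjusted p = 0.136), which is 59.0% of the WT level. In Lyl1-/- cells it was -0.52 (SE 0.149, interval -0.86 to -0.18, adjusted p = 0.357). E2A-/- and Lyl1-/- arrays overlapped, with a difference of -0.24 between them (interval -0.55 to 0.06) that was -0.11 without E2A-/- 3. The other Mecom probe sets, 1422295_at and 1423011_at, lay under the array median on all 9 arrays and were not tested. Averaged with these dim probe sets, Mecom differed from WT by -0.27 in E2A-/- and -0.18 in Lyl1-/- cells.

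Prdm16, a relative of Mecom and likewise a zinc finger regulator of stem cell maintenance, has 4 probe sets, which disagreed. The brightest, 1440870_at, read 148, 136 and 152 in WT. It read 104, 146 and 92.5 in E2A-/- and 111, 100.3 and 107 in Lyl1-/- cells. All Lyl1-/- arrays lay below WT, whereas E2A-/- 2 lay among the WT arrays. The differences from WT were -0.36 in E2A-/- (interval -0.76 to 0.05, limma adjusted p = 0.694) and -0.43 in Lyl1-/- cells (interval -0.83 to -0.03, adjusted p = 0.568). Without E2A-/- 2 the first was -0.55.

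The dim probe set 1429308_at went the other way. It read 69.1, 70.5 and 64.6 in WT, 78.9, 77.8 and 83.9 in E2A-/- and 79.2, 82.5 and 84.2 in Lyl1-/- cells, so both knockouts lay above WT around the array median. Its differences were 0.22 and 0.26 (limma adjusted p = 0.582 and 0.462). Having passed the filter through the knockouts alone, it had to be higher there. The remaining Prdm16 probe sets, 1440745_at and 1429309_at, overlapped between each knockout and WT, with differences from -0.10 to 0.15. Which of the 4 reads the main transcript was not tested.

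Hlf, a leucine zipper factor whose expression is closely tied to stem cells, was lower in Lyl1-/- arrays by both of its probe sets. The first, 1434735_at, read 504, 353 and 510 in WT and 262, 286 and 320 in Lyl1-/- cells. The second, 1434736_at, read 344, 446 and 346 in WT and 241, 219 and 225 in Lyl1-/- cells. Neither overlapped, and the differences were -0.55 (interval -1.15 to 0.04, limma adjusted p = 0.639) and -0.78 (interval -1.41 to -0.15, adjusted p = 0.469).

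In E2A-/- cells Hlf was scattered. Its first probe set read 427, 499 and 266 and its second 293, 423 and 193, so E2A-/- 3 was low by both and E2A-/- 2 stood at the WT level. The differences from WT were -0.14 and -0.45 (limma adjusted p = 0.969 and 0.798). The second became -0.16 without E2A-/- 3 and -0.72 without E2A-/- 2. WT 2 was the lowest WT array by the first probe set and the highest by the second, so the probe sets disagree on that array.

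Mycn encodes the N-Myc transcription factor, which supports growth of stem cells alongside Myc. By its brightest probe set it was lower in E2A-/- than in Lyl1-/- arrays, but the difference did not pass the threshold. That probe set, 1417155_at, read 203, 252 and 199 in WT. The E2A-/- arrays, at 131, 167 and 170.2, all lay lower, while the Lyl1-/- arrays spanned the WT range at 182, 197 and 280.2. The difference from WT was -0.54 in E2A-/- cells (SE 0.204, interval -1.01 to -0.07, limma adjusted p = 0.562) and -0.06 in Lyl1-/- cells (interval -0.53 to 0.41). A second probe set, 1425923_at, stayed between 100.1 and 115 on all 9 arrays, and the third was above the array median on 1 array.

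Mllt3, whose product AF9 is a chromatin reader that sustains stem cell self-renewal, was lower in Lyl1-/- arrays by both tested probe sets. The first, 1429205_at, read 145, 129 and 140.3 in WT and 97.8, 117 and 113 in Lyl1-/- cells. The second, 1431890_a_at, read 99.1, 92.7 and 108 in WT and 82.5, 80.2 and 81.3 in Lyl1-/- cells. The groups did not overlap, with differences of -0.32 (limma adjusted p = 0.722) and -0.27 (interval -0.50 to -0.04, adjusted p = 0.50). The E2A-/- arrays read 113, 113 and 165 by the first and 93.7, 87.2 and 81.5 by the second, and overlapped with WT at differences of -0.08 and -0.17. By the first probe set E2A-/- 3 was the highest of all 9 arrays. The last Mllt3 probe set, 1453622_s_at, exceeded the array median on 2 arrays and was not tested.

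Among the surface proteins, Procr encodes EPCR (CD201), the protein C receptor used to sort stem cells. It read 470.1, 487 and 466 in WT, 487, 476 and 345 in E2A-/- and 273, 332 and 498 in Lyl1-/- cells. In each knockout at least 1 array was at the WT level, and only E2A-/- 3 and Lyl1-/- 1 and 2 lay below it. The differences were -0.15 (interval -0.71 to 0.41) and -0.42 (interval -0.98 to 0.14), with limma adjusted p = 0.962 and 0.743. The second became -0.66 without Lyl1-/- 3 and -0.23 without Lyl1-/- 1.

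Robo4, a roundabout receptor of stem cells and endothelium that helps stem cells lodge in the marrow, had the smallest p of the 16 in E2A-/- cells. It read 112, 109 and 114 in WT, 74.6, 72.9 and 84.5 in E2A-/- and 101, 106 and 110.3 in Lyl1-/- cells. E2A-/- arrays lay below all the others, near the array median, where only 1 of the 3 exceeded it. The difference from WT was -0.52 (SE 0.101, interval -0.75 to -0.29, limma adjusted p = 0.130), or 69.6% of the WT level. Lyl1-/- cells differed from WT by -0.07 (interval -0.30 to 0.16). The lowest intensity on any array lay between 42.1 and 45.1, and with each array's lowest value subtracted and 16 added the E2A-/- difference was -0.78.

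Esam, an adhesion molecule of endothelium and stem cells, rested on WT 2. It read 208, 109 and 202 in WT, 117, 113 and 94.6 in E2A-/- and 134, 141 and 115 in Lyl1-/- cells. All knockout arrays lay below WT 1 and WT 3, and WT 2 lay among the E2A-/- arrays. The difference of E2A-/- from WT was -0.47 (interval -1.02 to 0.08, limma adjusted p = 0.710), and it was -0.93 without WT 2 and -0.01 without WT 1 and 3. In Lyl1-/- cells it was -0.20, with -0.66 without WT 2 and 0.25 without WT 1 and 3.

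Tek encodes TIE2, the angiopoietin receptor that keeps stem cells quiescent in their niche. Its only probe set read 79.3, 75.3 and 77.7 in WT, 61.9, 65.5 and 57.6 in E2A-/- and 70.4, 79.7 and 61.2 in Lyl1-/- cells. The E2A-/- arrays lay below WT, at 80.1% of its level, but the probe set exceeded the array median on 2 arrays in all and had no test.

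Pdzk1ip1 encodes MAP17, a small membrane protein whose gene lies in the Tal1 neighbourhood and is active in stem cells. Its bright probe set, 1455477_s_at, read 373, 666 and 371 in WT, 209.6, 188 and 299 in E2A-/- and 346, 348 and 296 in Lyl1-/- cells. The second, 1417689_a_at, read 251, 279 and 257 in WT, 158, 125 and 179 in E2A-/- and 252, 216 and 212 in Lyl1-/- cells. The E2A-/- arrays lay below WT by both probe sets, and the Lyl1-/- arrays by the first alone.

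The E2A-/- difference of Pdzk1ip1 from WT was -1.13 by the first probe set (SE 0.262, interval -1.73 to -0.53, limma adjusted p = 0.216) and -0.81 by the second (SE 0.158, interval -1.17 to -0.45, adjusted p = 0.137). WT 2 was high by the first, and without it that difference was -0.71. The difference in Lyl1-/- cells was -0.60 by the first and -0.24 by the second (limma adjusted p = 0.598 and 0.792), and the first became -0.18 without WT 2. The gene was thus at 45.7% and 57.2% of WT in E2A-/- cells by its probe sets.

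The counting of WT 1 and WT 3 as 1 sample decided whether some of these genes passed in E2A-/- cells. With all 9 arrays taken as separate samples, Robo4 (-0.53, limma adjusted p = 0.0227), Pdzk1ip1 1417689_a_at (-0.78, adjusted p = 0.0336) and Mecom (-0.73, adjusted p = 0.0344) passed the threshold. That fit called 154 probe sets in all, against 45.

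**Figure D3:**
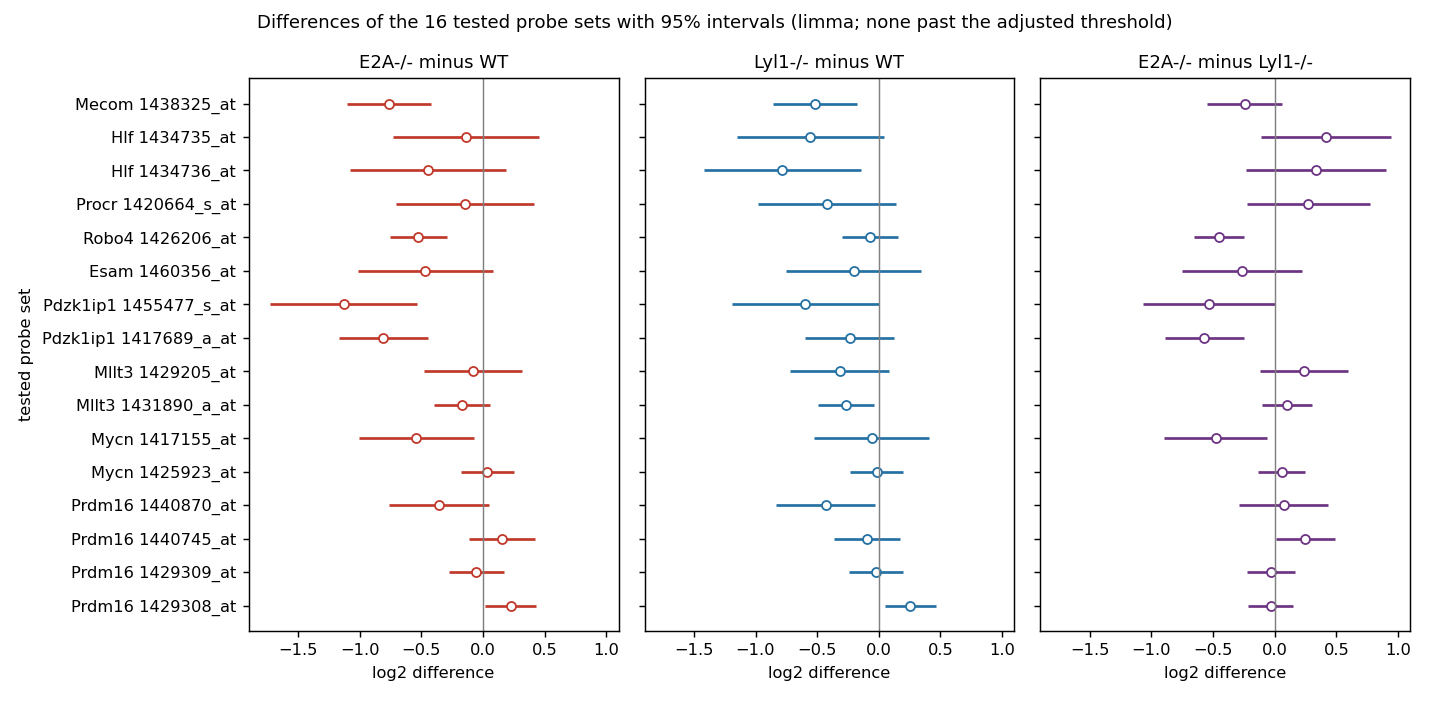
Log2 differences of the 16 tested probe sets (points) with 95% intervals from limma (bars), for E2A-/- minus WT, Lyl1-/- minus WT and E2A-/- minus Lyl1-/-. Mecom, Robo4 and both Pdzk1ip1 probe sets lie furthest from 0 relative to their intervals in E2A-/- cells, and none of the 48 differences passed the adjusted threshold.

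The knockouts were also set against each other. Of the 16 probe sets 8 were lower and 8 higher in E2A-/- than in Lyl1-/- arrays, beside 52.9% lower of all tested, and the median difference was 0.01. None of them passed the threshold, which 0.0735% of all tested probe sets did. At an unadjusted limma p under 0.05, 3 were lower and 1 higher in E2A-/-, beside 4.24% and 3.48% of all. The arrays did not overlap for 3 lower and 1 higher, beside 6.19% and 5.34%.

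The 3 lower ones were Robo4, Pdzk1ip1 1417689_a_at and Mycn 1417155_at. The log2 difference, E2A-/- minus Lyl1-/-, was -0.45 for Robo4 (SE 0.0901, interval -0.66 to -0.25, limma adjusted p = 0.275), -0.57 for Pdzk1ip1 (SE 0.141, interval -0.89 to -0.25, adjusted p = 0.404) and -0.48 for Mycn (interval -0.90 to -0.06, adjusted p = 0.567). Mycn became -0.29 without Lyl1-/- 3. The higher one was Prdm16 1440745_at, at 0.25 (limma adjusted p = 0.618). Hlf and Procr lay higher in E2A-/- by 0.42, 0.34 and 0.27 for their 3 probe sets, but the arrays overlapped and all 3 intervals included 0. Single arrays moved these values: the Hlf differences were 0.23 and 0.06 without E2A-/- 2 and 0.68 and 0.62 without E2A-/- 3. For Procr it was 0.08 without Lyl1-/- 1, 0.52 without Lyl1-/- 3 and 0.43 without E2A-/- 3.

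By array, the median difference of the 9 leading probe sets from the WT mean was -0.46, -0.40 and -0.63 on E2A-/- 1, 2 and 3. It was -0.47, -0.51 and -0.37 on Lyl1-/- 1, 2 and 3. The WT arrays set the reference, so their own closeness to it says nothing of their spread. All 9 genes were below the WT mean on Lyl1-/- 1 and 2, and 7 on Lyl1-/- 3, where Mycn and Procr lay above. Lyl1-/- 1 and 2 were also the arrays of that genotype with high Xist; with Xist as a covariate, the differences of Lyl1-/- from WT were -0.25 for Procr and -0.20 for Mllt3 1429205_at. On E2A-/- 1, 2 and 3 they were 7, 7 and 8.

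**Figure D4:**
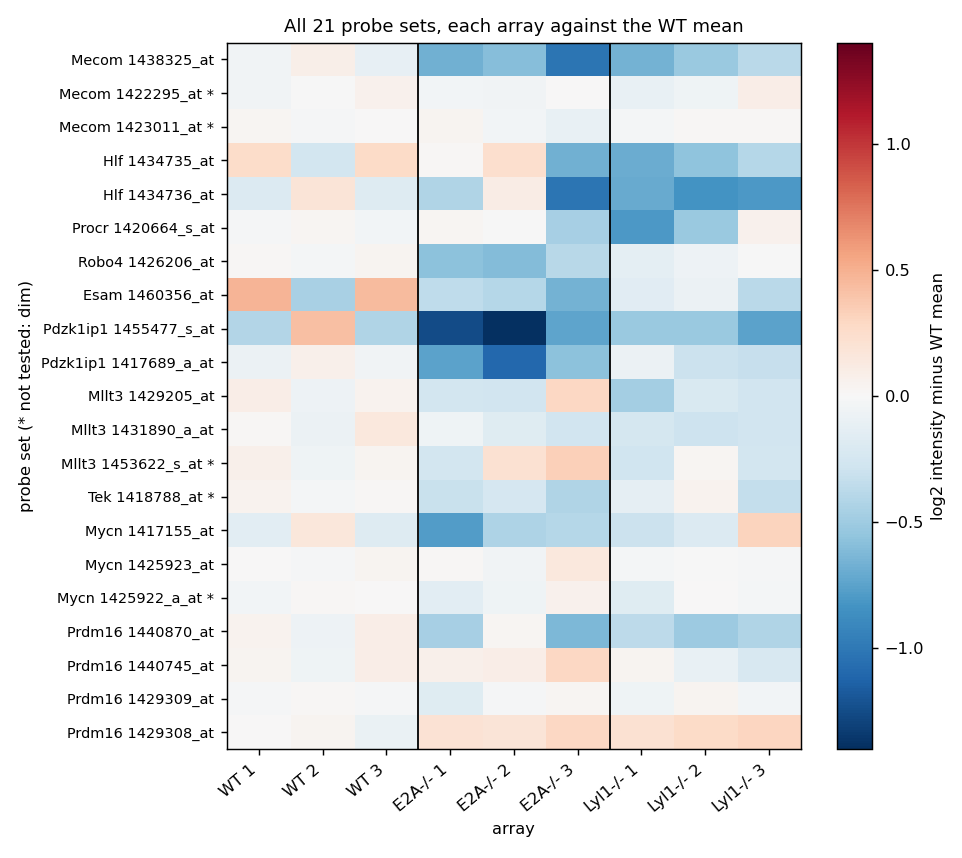
Log2 intensity of all 21 probe sets on each array minus the WT mean (WT 1 and WT 3 averaged first), from blue (lower) to red (higher); an asterisk marks the 5 probe sets too dim to test. Mecom 1438325_at and both Pdzk1ip1 rows are blue on all 6 knockout arrays, Robo4 is darker on the E2A-/- arrays, and Prdm16 1429308_at is red on all 6.

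A wider list of 30 other stem cell genes was examined in the same way. Of these, 27 were measured and 20 passed the filter, each by its brightest probe set. This list too was chosen with earlier results of these data known, so its counts are a description and not a test. In E2A-/- against WT 16 of the 20 were negative, with a median of -0.28, and 2 fell past the threshold, beside 53.3% negative and 0.221% called of all tested probe sets. In Lyl1-/- against WT 15 were negative, with a median of -0.20, and 2 fell, beside 51.1% and 0.216%. Both times these were Ndn, which encodes the growth suppressor necdin, and Hmga2, a chromatin protein gene of fetal-type stem cells. In E2A-/- against WT 5 of the 20 were lower and 1 higher at an unadjusted limma p under 0.05. Of all tested probe sets 5.11% and 2.97% were. In Lyl1-/- against WT 7 were lower and 2 higher at that p, beside 4.88% and 3.48% of all. The list held 0 genes past the threshold between the knockouts, beside 0.0735% of all tested probe sets. At an unadjusted limma p under 0.05, 2 of the 20 were lower and 2 higher in E2A-/-, beside 4.24% and 3.48% of all.

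Ndn read 203, 238 and 192 in WT, 98.0, 91.6 and 98.7 in E2A-/- and 84.1, 85.2 and 104 in Lyl1-/- cells. Its differences from WT were -1.18 and -1.26 (limma adjusted p = 0.0114 and 0.0084). Hmga2 read 166, 180.4 and 165 in WT, 90.9, 103 and 91.2 in E2A-/- and 96.9, 91.7 and 101 in Lyl1-/- cells, with differences of -0.86 and -0.84 (limma adjusted p = 0.0198 and 0.0192). Neither overlapped with WT on any array.

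The next genes of this list did not pass. Erg, an ETS factor of stem cells, stood at -0.56 in E2A-/- and -0.50 in Lyl1-/- cells (limma adjusted p = 0.241 and 0.317). Fgd5, used as a stem cell reporter, stood at -0.64 in E2A-/- (adjusted p = 0.406) and -0.13 in Lyl1-/- cells. Meis1, a homeobox partner of Hox proteins, stood at -0.82 in Lyl1-/- (adjusted p = 0.101) and -0.41 in E2A-/- cells. Bmi1, a Polycomb gene, was -0.34 in Lyl1-/- cells (adjusted p = 0.304) and 0.03 in E2A-/- cells.

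Other cell types were checked, since several of the marker genes are shared with endothelium. Their gene lists were also chosen with earlier results of these data known. Of 16 endothelial genes all were measured, 8 were tested and 7 never exceeded the array median, among them Cdh5 (62.8 to 72.4) and Cldn5. Kdr (79.7 to 99.4), Flt4 (81.3 to 96.9) and Plvap (84.1 to 127) exceeded it on 9 arrays, and Tie1 (74.6 to 118) on 7. The summed endothelial intensity was 1568 to 1760 in WT, 1363 to 1548 in E2A-/- and 1531 to 1635 in Lyl1-/- arrays. The brightest gene of the list was Egfl7, which stem cells also express, at 440 to 584 in WT, 260 to 426 in E2A-/- and 349 to 436 in Lyl1-/- arrays. Emcn, which encodes endomucin of venous and capillary endothelium, read 94.3 to 111 in WT, 65.6 to 76.7 in E2A-/- and 80.9 to 94.8 in Lyl1-/- arrays. Of the 8 tested endothelial genes, 4 were negative in E2A-/- and 3 in Lyl1-/- cells, with medians of -0.02 and 0.02. Egfl7 and Emcn were lower in E2A-/- than in WT at an unadjusted limma p under 0.05, beside 5.11% of all tested probe sets. Their differences were -0.69 and -0.53 (limma adjusted p = 0.444 and 0.21). Emcn passed the filter through the WT and Lyl1-/- arrays alone, so it had to be lower in E2A-/- arrays. In Lyl1-/- cells 0 of the 8 were lower at that p, beside 4.88% of all. The part of endothelial genes in the marker differences was not tested.

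Mature granulocyte and monocyte genes moved with some arrays. The sum over 12 measured genes of 14 ranged from 1999 to 2515 in WT, and was 2004, 17933 and 20550 on E2A-/- 1, 2 and 3 and 3898, 3415 and 2288 on Lyl1-/- 1, 2 and 3. The sum was at the WT level on E2A-/- 1 and Lyl1-/- 3, where the marker genes had median differences of -0.46 and -0.37 from WT; the latter was the smallest of the 3 in Lyl1-/- cells. On E2A-/- 1 the leading probe sets ran from -1.25 (Pdzk1ip1), -0.78 (Mycn), -0.67 (Mecom) and -0.57 (Robo4) through -0.46 (Prdm16), -0.35 (Esam) and -0.26 (Mllt3) to 0.013 (Hlf) and 0.030 (Procr). The part of the granulocyte and monocyte genes in these differences was not tested.

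Of 10 megakaryocyte genes 9 were measured, and Pf4 was 646 on E2A-/- 3 against 131 to 286 elsewhere; their sum was 920 to 1007 in WT, 936 to 1465 in E2A-/- and 1029 to 1098 in Lyl1-/- arrays. Itga2b, the platelet integrin CD41, lay above WT (126 to 152) in both E2A-/- (170.2 to 279) and Lyl1-/- arrays (190.3 to 317), with differences of 0.61 and 0.85 (limma adjusted p = 0.595 and 0.378). Its partner Itgb3 also lay above WT in both, by 0.27 and 0.70, and the platelet glycoprotein gene Gp9 in Lyl1-/- arrays by 0.28. Having passed the filter through the knockout arrays alone, Itgb3 had to be higher there. Pf4 differed by 0.22 in E2A-/- and -0.60 in Lyl1-/- cells, and Tubb1 by -0.22 and -0.16. Tubb1 exceeded the array median on no E2A-/- array. Of the 7 tested, 4 were negative in E2A-/- and 3 in Lyl1-/- cells, with medians of -0.004 and 0.03. At an unadjusted limma p under 0.05, 1 was higher in E2A-/- and 3 in Lyl1-/- cells, beside 2.97% and 3.48% of all tested probe sets. Itgb3 was among the 3. The threshold was passed by 0 of the 7, beside 0.221% and 0.216% of all. Of 10 stromal genes, all measured, the collagen gene Col1a2 was 415 on WT 2 and 69.6 to 102 elsewhere; their sum was 1583 on WT 2 and 1062 to 1326 on the other arrays. The part of these genes in the marker differences was not tested. Of 9 tested lymphoid priming genes 8 were negative in each knockout, with medians of -0.37 and -0.30, beside 53.3% and 51.1% negative of all tested probe sets. None passed the threshold; 3 in E2A-/- and 1 in Lyl1-/- cells were lower at an unadjusted limma p under 0.05, beside 5.11% and 4.88% of all. The sort gate genes Kit and Flt3 were both negative in each knockout, with medians of -0.17 in E2A-/- and -0.45 in Lyl1-/- cells.

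Finally, the genes whose profile was most like the mean profile of the 9 leading probe sets were sought over 8 samples among 11952 other genes, by the root mean square difference of centred log2 values. The 5 closest were Gprasp2 (0.0595), Ccl3 (0.0650), Naa60 (0.0686), Arhgap4 (0.0710) and Sh2d5 (0.0764). Ccl3 read 124 to 132 in WT, 82.1 to 96.5 in E2A-/- and 90.9 to 96.7 in Lyl1-/- arrays. It was picked for likeness to a profile that is highest in WT, so its lower knockout values follow from the choice. Of the marker genes themselves Mecom was nearest to their mean (0.155) and Pdzk1ip1 furthest (0.421).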

How the data were processed

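Each array's deposited table holds a linear intensity for every probe set. RMA and the oligo package are named in the submitters' processing notes as the tools of the authors; their versions are not given in the sources used here. Log2 was taken with no pseudocount. The design had allowed for log2 values. Of 45101 probe sets, 64 controls, 932 with several genes and 9160 with none were left out. Probe sets brighter than the array's median on 3 or more of 9 arrays (20402) were fitted in R 4.3.3 by limma 3.58.1 (lmFit, eBayes): genotype as the only factor, 8 samples, 5 residual degrees of freedom, two-sided tests, Benjamini-Hochberg adjustment over all tested probe sets, threshold 0.05. The fit was tested on simulated data.

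The member genes and all gene lists were chosen with earlier results of these data known. Named genes were the members, Lyl1, Tcf3, Xist and up to 4 other stem cell genes per comparison with the smallest p. Further ones were the brightest or array-describing markers of other cells and the 5 genes of closest profile. Thy1 and Tgm2 were added as genes higher than WT in a knockout, and Kdr, Flt4, Plvap and Tie1 as endothelial genes above the array median. Kit and Flt3 stand for the sort gate. Promoter letters were read with Python 3.11.15. The number of arrays limits the precision, and p-values measure the spread between these samples, which the labels call independent.

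Replicate numbers were not taken to pair arrays. Alternatives covered normalization, filters, probe set summaries, covariates for Xist and actin, the replicate block and arrays left out. Fits that leave 1 sample in a group take its spread from the other groups.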

Additional observations from a re-analysis of the deposited data

How the results depend on the processing

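Over 24 alternatives the 16 member differences gave 361 values per comparison. Of these 348, 349 and 357 (E2A-/- against WT, Lyl1-/- against WT, E2A-/- against Lyl1-/-) kept their direction and their side of the threshold, 4, 0 and 0 passed it, and 9, 12 and 4 changed sign. The WT group of 2 samples and the dim signal of several probe sets, close to the array median, limit what could be detected. The median difference over the leading probe sets of the members was negative in each comparison under all 24. Between the knockouts the main fit had 5 of the 9 leading probe sets negative, with a median of -0.24. Over all 16 probe sets that comparison had 8 negative and a median of 0.01.

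Replicate numbers were not taken to pair the arrays: deviations of the 9 same-numbered pairs correlated from -0.14 to 0.25, 3 of them above 0.1, and 5 of 9 arrays were closest to their own number. With the replicate block on 9 arrays the counts past the threshold were 94, 88 and 16, and Robo4 passed in E2A-/- against WT (-0.53, limma adjusted p = 0.0433).

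The count past the threshold in E2A-/- against WT was 23 with the stricter filter, 27 with 1 probe set per gene, 18 with probe sets averaged per gene, 154 with 9 separate arrays, 14 with only the 2 groups compared, 26 with Xist as a covariate, 21 without WT 1 and 3, 11 without E2A-/- 2 and 3 and 15 without WT 2 and E2A-/- 2. In Lyl1-/- against WT it was 27, 23, 18 and 149 under the first 4 of these, 12 with Xist and 22 with actin as a covariate, 24 without WT 1 and 3, and 12 when WT 2 and E2A-/- 2 were left out. Between the knockouts it was 9 with Xist, 4 without E2A-/- 2 and 3 and 6 without WT 2 and E2A-/- 2. Leaving out 1 array gave 15 to 54, 12 to 63 and 4 to 26. The lowest of these came without WT 2 in the first, without Lyl1-/- 1 in the second, and without E2A-/- 3, Lyl1-/- 1 or Lyl1-/- 2 in the third.

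The members' median in E2A-/- against WT was -0.37 with the lowest value subtracted, -0.54 with the stricter filter, -0.47 with 1 probe set per gene, -0.13 without WT 1 and 3, -0.47 without WT 2 and E2A-/- 2 and -0.41 to -0.19 when 1 array was left out. In Lyl1-/- against WT it was -0.52 with the stricter filter and -0.42 with 1 probe set per gene. Between the knockouts it was -0.24 under both and -0.094 when probe sets were averaged per gene.

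All signs that turned were of differences that had not passed. In E2A-/- against WT, Hlf 1434735_at was 0.12 without WT 1 and 3 and 0.013 without E2A-/- 2 and 3, and Procr 0.030 without E2A-/- 2 and 3. Leaving out 1 array gave -0.40 to 0.13 for Hlf 1434735_at, -0.24 to 0.013 for Procr, -0.26 to 0.013 for Mllt3 1429205_at, -0.091 to 0.0062 for Prdm16 1429309_at and -0.016 to 0.082 for Mycn 1425923_at. In Lyl1-/- against WT, Mycn 1417155_at was 0.075 with Xist, 0.10 with actin and 0.10 without WT 2 and E2A-/- 2, and -0.25 to 0.10 with 1 array left out. Mycn 1425923_at was 0.0086 after another quantile normalization, 0.026 with Xist and 0.0024 without WT 1 and 3. Robo4 was 0.0017 with Xist, Prdm16 1429309_at 0.0072 with actin, and Esam 0.25 without WT 1 and 3. Between the knockouts, Prdm16 1440870_at was -0.032 without E2A-/- 2 and 3, -0.12 without WT 2 and E2A-/- 2 and -0.12 to 0.21 with 1 array left out, and Prdm16 1429309_at -0.068 to 0.029. The causes were not tested.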
